A study of Mus musculus with 4 samples.

Results

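Blood Ly6Chi monocytes lacking RBP-J were compared with control Ly6Chi monocytes by RNA-seq, 1 library against 1 library. Across 8875 genes of 23995 symbols in the table, those that both libraries held at an FPKM of 1 or more, small RNA genes set aside, 171 were at least 2-fold higher and 305 at least 2-fold lower in the RBP-J-deficient library. FPKM counts the fragments of a gene relative to its transcript length and to the size of its library. Each ratio given is deficient to control in (FPKM + 1), on a log2 scale, so that 1 is 2-fold and the ratio of low genes is understated. Among the genes past 2-fold, Rbpj, Cebpd, Junb and Hes1 were lower and Fpr1, Notch2, Ear10, Cd36 and Cd300e higher. Among the genes that mark the other blood subset, Ly6Clo monocytes, 12 of 27 were at least 2-fold higher, against 1.93% of all genes. Of the 27, 10 lay below 0. That list was chosen with earlier results of these data known, and all genes are not a like comparator for it. Genes that mark Ly6Chi monocytes had a median log2 ratio of -0.12.

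The series holds 4 libraries of sorted mouse blood monocytes, 1 each of control Ly6Chi, RBP-J-deficient Ly6Chi, control Ly6Clo and RBP-J-deficient Ly6Clo cells. The control libraries are titled WT and their genotype label is Lyz2-Cre, which the study's methods give as Rbpj+/+ Lyz2cre/cre, and the deficient genotype is RBP-Jfl/fl Lyz2-Cre, given as Rbpj fl/fl Lyz2cre/cre. Both genotypes therefore carry the Cre recombinase in the Lyz2 locus, which is active in monocytes, macrophages and neutrophils, so deletion is not restricted to Ly6Chi cells. Neither the age nor the number of mice behind a library is given in the labels, and with 1 library a genotype the mice, the sort and the library preparation cannot be told apart from the genotype. No difference here has a replicate check, no test was made, and the depth of the libraries is unknown. In such bulk libraries, fewer cells that express a gene and less RNA of it per cell cannot be told apart.

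RBP-J is the DNA-binding factor of canonical Notch signalling. When a Notch receptor meets a ligand on a neighbouring cell, gamma-secretase releases its intracellular domain, which enters the nucleus and joins RBP-J and Mastermind-like proteins to activate targets such as Hes1. Without that domain RBP-J recruits corepressors to the same sites. Ly6Chi monocytes are the classical, inflammatory blood monocytes that enter tissues through CCR2. Part of them convert to Ly6Clo monocytes, which patrol the vessel wall. The study cites Notch2 as a regulator of this conversion in niches of bone marrow and spleen. In its own transfer of bone marrow Ly6Chi monocytes, it found the conversion unaffected by RBP-J deficiency.

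The summed FPKM of the table was 711555 in the control and 763721 in the RBP-J-deficient Ly6Chi library, with 9394 and 9258 symbols at an FPKM of at least 1. Monocyte genes marked both libraries. Csf1r, the CSF-1 receptor, had an FPKM of 306.7 in control cells and 213 in deficient cells, and Cd68 had 1173 and 1391. Itgam, which encodes CD11b, had 66.2 and 63.7, and Ly6c2, which encodes the Ly6C antigen, had 2013 and 1594 against 10.9 in control Ly6Clo cells. Actb is listed at 0 in both deficient libraries with a status that marks a failed estimate, so a listed 0 was not read as absence. Its FPKM of 22795 in control Ly6Chi cells is part of the control sum above, and the deficient sum lacks it. The gene nearest the FPKM limit from inside was Serpinb9, at 1.003 in its lower library, and from outside Gkap1, at 0.999.

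**Figure D1:**
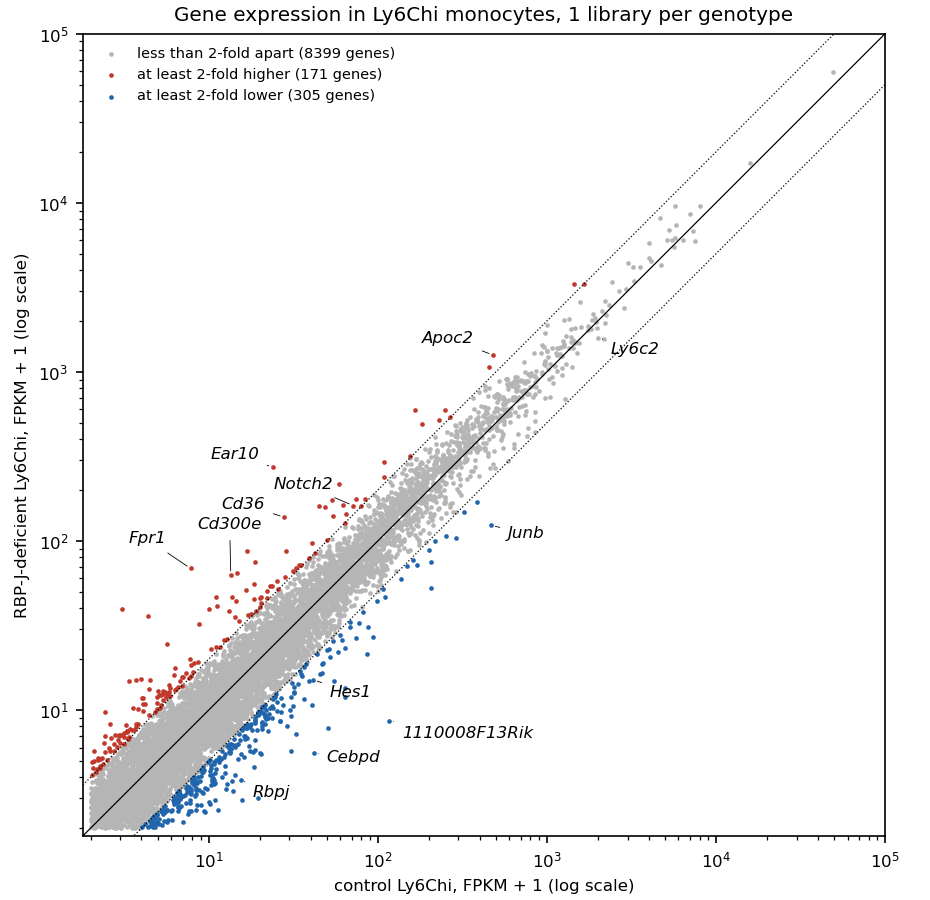
FPKM + 1 of each of the 8875 genes in the control (horizontal axis) and the RBP-J-deficient Ly6Chi library (vertical axis), both on log scales, 1 point a gene. The solid line marks equality and the dotted lines 2-fold; red points are the 171 genes at least 2-fold higher, blue points the 305 at least 2-fold lower, and the strip of grey points narrows toward high FPKM.

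Genotypes were close for most genes. Of the 8875 genes, 77.8% lay within 1.5-fold, the median log2 ratio was 0.01 and the quartiles were -0.31 and 0.30. The 171 genes at least 2-fold higher are 1.93% of all genes, and the 305 at least 2-fold lower are 3.44%. Only 4 genes reached a fold of 5.7 in (FPKM + 1), or 0.0451%, and 7 were at or under a fold of 0.2, or 0.0789%, the limits of the study's methods. With FPKM rescaled to a fixed total (TPM), 136 were higher and 464 lower, so that higher genes made up 22.7% of those past 2-fold against 35.9% as deposited. The rescaling used the sums over the whole table, to which Actb adds 22795 in control and a failed 0 in deficient cells. The median control FPKM was 12.02 for the lower genes, 5.34 for the higher genes and 11.98 for all genes.

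The targeted gene itself, Rbpj (chr5:53555779-53657445 in the deposited positions, build mm10), had an FPKM of 14.4 in control cells and 2.85 in RBP-J-deficient Ly6Chi monocytes, a log2 ratio of -2.0. In Ly6Clo monocytes it had 8.30 and 2.43, a ratio of -1.44. The table holds 1 value for the whole gene, so reads from exons outside the deleted part were not separated from it. Rbpj was thus lower in the library labelled deficient in both subsets.

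Dll1, Dll3, Dll4, Jag2 and the receptor Notch3 are listed at 0 in both Ly6Chi libraries, and the ligand gene Jag1 had an FPKM of 0.555 in control cells and 1.07 in deficient cells. Notch2, the receptor with the highest FPKM of the family here, had 70.3 in control and 161 in deficient cells, a log2 ratio of 1.18. Notch1 had 2.67 and 2.13, a ratio of -0.23. The higher Notch2 was also seen in Ly6Clo cells, at 125.7 and 732.3.

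Of the 19 genes that process or modify Notch receptors and passed the FPKM limit, 1 was at least 2-fold higher and 1 at least 2-fold lower. That is 5.26% each way, against 1.93% of all genes higher and 3.44% lower. The median of the list was -0.18. Furin, the protease that cleaves the Notch precursor in the Golgi, had an FPKM of 15.5 in control cells and 50.5 in deficient cells, a log2 ratio of 1.64. In Ly6Clo cells Furin was at 11.5 and 11.6. Lfng, a Fringe glycosyltransferase that modifies Notch and changes its choice of ligand, had 5.50 and 1.90, a ratio of -1.16, and -0.88 after the GC correction described further on. Its relative Mfng had 11.99 and 6.24, a ratio of -0.84. Of the gamma-secretase subunit genes, Ncstn had 79.6 and 62.4 and Psenen 334.8 and 423.9, both within 2-fold.

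Among the 23 measured partners of RBP-J, the median log2 ratio was -0.01. In each direction 1 gene was past 2-fold (4.35%, against 1.93% of all genes higher and 3.44% lower). These were the paralogous histone acetyltransferase genes Kat2b, at 3.93 in control and 9.97 in deficient cells (ratio 1.15), and Kat2a, at 5.43 and 1.93 (ratio -1.13, or -0.90 after GC correction). Cir1, a corepressor that binds RBP-J, had 18.3 and 37.4, a ratio of 0.99. The Mastermind-like coactivator Maml1 had 3.55 and 3.29. The other partners measured lay within 2-fold.

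Of 20 Notch target genes in the list, 5 passed the FPKM limit, and 1 of the 5 (20%, against 3.44% of all genes) was at least 2-fold lower, a share that rests on a single gene. Hes1, a basic helix-loop-helix repressor and the best known Notch target, had an FPKM of 40.5 in control cells and 14.1 in deficient cells, a log2 ratio of -1.46. In Ly6Clo cells it was at 238.2 in control and 11.7 in deficient cells, so the 2 deficient libraries lay closer to each other than the 2 controls. Nrarp, a feedback inhibitor of Notch, had 0.716 and 0.767 in Ly6Chi cells and 10.3 and 0 in Ly6Clo cells. Hes6 had 53.2 and 52.9, and Cdkn1a, a cyclin-dependent kinase inhibitor, 45.1 and 48.1. Myc, which did not pass the limit, had 2.90 in control and 0.0744 in deficient cells.

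**Figure D2:**
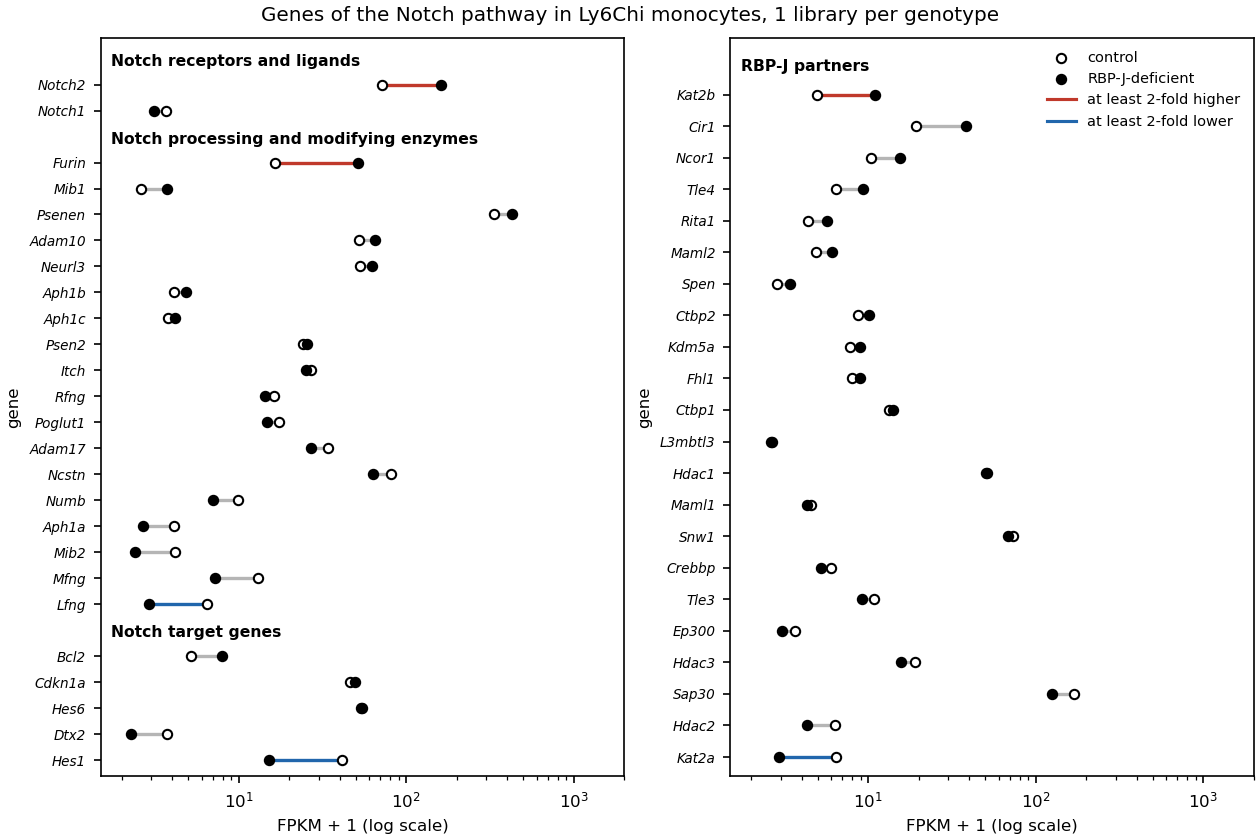
FPKM + 1 (horizontal axis, log scale) of Notch pathway genes that passed the FPKM limit in Ly6Chi monocytes, 2 genes left out, with control as open and RBP-J-deficient as filled points, 1 library each. Red lines join the values of genes at least 2-fold higher (Notch2, Furin, Kat2b) and blue lines those at least 2-fold lower (Lfng, Hes1, Kat2a); the other genes lie between.

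The letters of the RBP-J motif were looked for in RefSeq promoters of build GRCm38.p6, which cover 250 bases before and 50 after a start site. Its core TGGGAA, on either strand, was in 28.3% of the 27025 genes with a promoter in the table, in 25.8% of the 6789 genes compared here that have one, in 27.8% of 126 higher genes and in 27.6% of 243 lower genes. The longer form CGTGGGAA, which contains the core, was in 1.28% of compared genes, 1.59% of higher and 2.47% of lower genes, the last being 6 genes. Lfng was the 1 of these in the Notch pathway. The others were Rrp9, Ciz1, Rara, Klhl20 and Gga1, with log2 ratios of -1.69, -1.18, -1.13, -1.13 and -1.06. For the core the shares in higher and lower genes were near that in compared genes, while the larger share of the long form in lower genes rests on these 6. Windows of 30 bases are shown for 3 members described here, on the strand of the gene and with the motif or its reverse complement in capitals, as an example of each sort: a Notch pathway gene with the long form, the targeted gene, and a gene that was higher with only the core.
Lfng (chr5:140607220-140607249, plus strand, motif from base -110): tccgtatcccaCGTGGGAAggagagatctc
Rbpj (chr5:53590185-53590214, plus strand, motif from base -149): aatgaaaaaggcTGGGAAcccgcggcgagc
Rbpj (chr5:53590269-53590298, plus strand, motif from base -65): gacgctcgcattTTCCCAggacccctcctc
Cd36 (chr5:17835922-17835951, minus strand, motif from base -43): gacttacttggaTGGGAAcatggccaaaaa
Rbpj holds the core on both strands, and base positions count from a start site. The promoters of Notch2, Fpr1, Ear10, Cd300e and Junb held neither form. Of 41 named genes looked up 27 had a promoter, and Hes1 and Cebpd had none, so these were not searched.

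Among the 15 genes with the highest ratios, several encode surface receptors and secreted proteins of phagocytes. Fpr1, the receptor for bacterial formyl peptides, had an FPKM of 6.82 in control cells and 67.7 in RBP-J-deficient Ly6Chi monocytes, a log2 ratio of 3.14. In Ly6Clo cells it had 59.5 and 370.2, a ratio of 2.62. Its relative Fpr2 had 17.3 and 29.4 in Ly6Chi cells, a ratio of 0.73, so the value of Fpr1 was not shared at that size by the neighbouring receptor gene. Of the 15 chemoattractant receptors measured, Fpr1 was the 1 that was at least 2-fold higher, and S1pr2, a sphingosine-1-phosphate receptor, the 1 that was at least 2-fold lower, at 7.84 and 2.78. Each is 6.67% of the list, against 1.93% of all genes higher and 3.44% lower.

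The Ear genes encode ribonucleases named after eosinophils. Ear10 had an FPKM of 22.9 in control cells and 272 in deficient Ly6Chi cells, a log2 ratio of 3.51, and Ear3 had 15.8 and 86.3, a ratio of 2.38. Ear1 lay below the limit at 0.499 in control and was at 12.8 in deficient cells. Ear genes are near-identical copies among which reads may be split, and their sum was 39.2 in control and 371.2 in deficient cells, a ratio of 3.21. Control Ly6Clo cells had a sum of 299.4 and deficient Ly6Clo cells one of 647.4. The eosinophil granule genes Epx and Prg2 are listed at 0 in all 4 libraries, and none of the 13 basophil, mast cell and eosinophil markers in the table passed the limit in both Ly6Chi libraries. Those markers summed to an FPKM of 1.63 in control cells and 13.5 in deficient Ly6Chi cells, of which Ear1, itself in the list, made up 12.8.

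Some of the higher genes handle lipids, and of these Cd36, Pparg and Apoc2 are counted again among the Ly6Clo markers described further on. Cd36, the scavenger receptor that takes up fatty acids and oxidised lipoproteins, had 26.9 in control and 137.3 in deficient cells, a log2 ratio of 2.31. Fabp4, a fatty acid carrier, had 13.8 and 63.7, a ratio of 2.13, against 234.6 in control Ly6Clo cells. Pparg, the nuclear receptor that activates both of these genes in other cells, had 17.6 and 54.3, a ratio of 1.57. Apoc2, an apolipoprotein, had 479.1 and 1257, a ratio of 1.39, and Abcg1, a cholesterol exporter, 79.0 and 161, a ratio of 1.02. Of the 23 lipid genes measured, these 5 were at least 2-fold higher (21.7%, against 1.93% of all genes) and 2 at least 2-fold lower (8.70%, against 3.44%). The lower ones were Scarb1, the HDL receptor, at 58.8 and 26.6, and Srebf2, which drives cholesterol synthesis, at 13.8 and 5.25. The median of the list was -0.10, below that of all genes, and under TPM Abcg1 was no longer past 2-fold.

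Cd300e, an activating receptor of monocytes, had an FPKM of 12.5 in control cells and 61.9 in deficient Ly6Chi cells, a log2 ratio of 2.22, but 987.4 and 563.6 in Ly6Clo cells, a ratio of -0.81. Of 21 CD300, Siglec and TREM receptors, 5 were at least 2-fold higher (23.8%, against 1.93% of all genes) and 1 lower (4.76%, against 3.44%), with a median of -0.05. The others above 2-fold were Trem3 (108 and 293), Cd300ld (107.2 and 238.8), Treml4 (154.2 and 316.5) and Lilra5 (10.6 and 22.6). Cd300e, Cd300ld and Treml4 are counted again among the Ly6Clo markers described further on. Siglec1 was the lower one, at 3.05 and 1.03. Pirb, an inhibitory receptor of the same cells, had 250.4 and 146, a ratio of -0.77.

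The Bcl2a1 genes, anti-apoptotic members of the Bcl2 family, were higher together. Bcl2a1a had 27.6 in control and 86.2 in deficient cells, Bcl2a1b 43.9 and 159, and Bcl2a1d 47.8 and 157.2. These 3 genes are near-identical and reads may be split among them, and their sum was 119.3 and 402.4, a log2 ratio of 1.75. Control Ly6Clo cells had a sum of 1516 and deficient Ly6Clo cells one of 2236. Bcl2a1a is counted again among the Ly6Clo markers described further on. Mcl1, another survival gene of the family, had 114.6 and 139, a ratio of 0.28. Bcl2l11, which encodes the pro-apoptotic protein Bim, had 5.24 and 2.03, a ratio of -1.04. The median over the 16 family genes measured was 0.07.

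Some of the highest ratios belong to symbols whose reads are hard to place. Amd2 had the highest ratio, 3.69, with 2.08 in control and 38.6 in deficient cells, but the joint symbol of Amd1 and Amd2 at the same locus had 45.5 and 15.5, and the sum of both was 47.6 and 54.1, a ratio of 0.18. Erdr1, at 3.38 and 35.0, lies at chrY:90785442-90816465 in the deposited positions, where the X and Y chromosomes share sequence, and was at 1.61 and 121.4 in Ly6Clo cells. The joint symbol H2-Q7,H2-Q9 of 2 near-identical class I genes had 10.02 and 45.8. The remaining members of the 15 were Gdpd3, 2210408F21Rik, Slc10a3-ubl4,Ubl4, Hddc3, Gm5643 and Ly6a, with ratios from 2.15 down to 1.99. Where both libraries reached an FPKM of 10, Eno3, a muscle-type enolase, followed at 57.9 and 216.5, Hsd11b1, which regenerates active glucocorticoid, at 10.1 and 40.0, and Pglyrp1, a secreted protein that binds peptidoglycan, at 166 and 597.9.

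**Figure D3:**
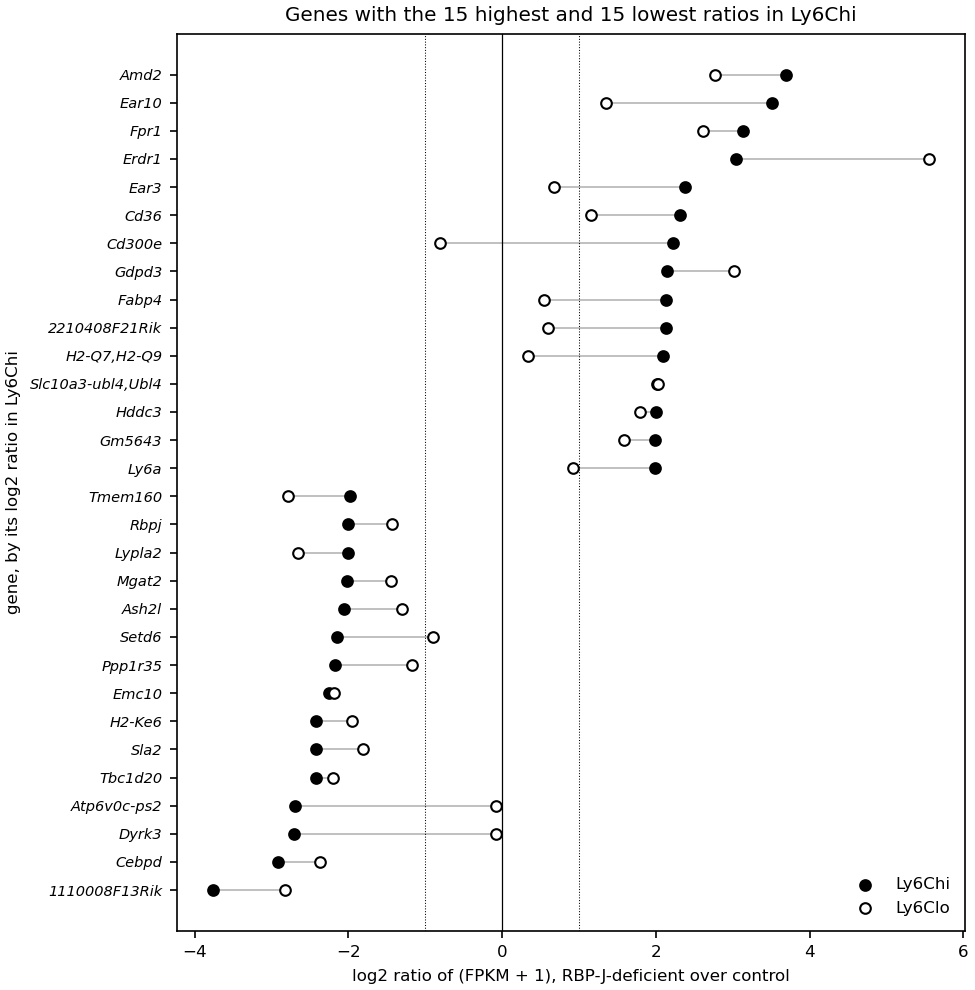
Log2 ratio of deficient to control FPKM + 1 (horizontal axis) of the genes with the 15 highest and the 15 lowest ratios in Ly6Chi monocytes, with Ly6Chi as filled and Ly6Clo as open points, 1 library a genotype and subset. The genes were chosen by the filled points; 14 of the 15 open points of the upper set lie above 0, with Cd300e at -0.81, and all 15 of the lower set lie below 0.

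The lowest ratio was that of 1110008F13Rik, with an FPKM of 116.2 in control cells and 7.61 in deficient cells, a log2 ratio of -3.77. Sla2, an adaptor that dampens receptor signalling, is given at the same deposited locus, chr2:156863122-156887078, and had 29.8 and 4.73, a ratio of -2.43. Reads of these overlapping symbols may not be separable. Cebpd, a C/EBP transcription factor of inflammatory myeloid cells, had 41.1 and 4.54, a ratio of -2.92, and 11.5 and 1.42 in Ly6Clo cells. Its deposited locus, chr16:15887286-16146851, is far longer than its longest transcript of 3746 bases. Whether reads of another gene enter its value was not tested. Dyrk3, a protein kinase, had 18.7 and 2.01 in Ly6Chi cells but only 0.253 and 0.186 in Ly6Clo cells, and Atp6v0c-ps2, a pseudogene, likewise 49.9 and 6.87 against 0.0547 and 0.

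The 15 lowest also include Rbpj, given above. Tbc1d20, a Rab GTPase-activating protein, had 14.8 and 1.93, and Emc10, a subunit of the ER membrane complex, 63.3 and 12.5. Ash2l, part of the complexes that methylate lysine 4 of histone H3, had 12.9 and 2.33, Mgat2, an enzyme of N-glycan synthesis, 85.6 and 20.4, and Tmem160 206.4 and 51.5. H2-Ke6, Ppp1r35, Setd6 and Lypla2 had ratios between -2.42 and -2.002. Of these 15 genes, 12 were also at least 2-fold lower in Ly6Clo cells, where 11.3% of the same 8875 genes were. At an FPKM of at least 10 in both libraries, Junb, 2310036O22Rik, Ssbp4, Clptm1 and Arhgdia followed, the last of which encodes a RhoGDI, at 87.0 and 30.1.

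Genes with a GC-rich transcript were lower more often. The median log2 ratio was 0.16 in the GC-poorest and -0.21 in the GC-richest of 5 equal groups of genes, and the share at least 2-fold lower went from 0.889% to 9.48%, while the share at least 2-fold higher went from 2.43% to 1.30%. Spearman's rho between ratio and GC content was -0.29 across the 8437 genes with a known GC content, a value across genes, which are not independent. After the trend was subtracted, 169 genes were at least 2-fold higher, 137 of them among the 171, and 218 at least 2-fold lower, 195 of them among the 305. Of the sets of 15, 11 of the highest and 14 of the lowest genes had a known GC content, and these were still past 2-fold. The part of base composition in single genes was not tested beyond this.

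Of the 28 Ly6Clo marker genes listed 27 were measured, all 27 with a higher FPKM in control Ly6Clo than in control Ly6Chi cells. Of these, 12 (44.4%, against 1.93% of all genes) were at least 2-fold higher in RBP-J-deficient than in control Ly6Chi cells. The control Ly6Chi library enters both comparisons, so a low value in it alone raises both, and all genes are not a like comparator. The list was also chosen with earlier results of these data known. The median log2 ratio of the 27 was 0.69, against 0.01 over all genes, and 0.59 after GC correction. After that correction the same 12 were still at least 2-fold higher, and under TPM all but Treml4 were. Besides Cd36, Cd300e, Pparg, Eno3, Pglyrp1, Apoc2, Bcl2a1a, Cd300ld and Treml4, these were Gngt2, a G protein subunit gene, at 1452 and 3317, Fcgr4, an activating Fc receptor for IgG, at 73.6 and 176.1, and Dusp16, a MAP kinase phosphatase, at 4.33 and 11.9.

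The 12 did not reach the Ly6Clo level. Each had a lower FPKM in deficient Ly6Chi cells than in either Ly6Clo library, and the share of the control Ly6Clo level ran from 6.27% for Cd300e to 88.9% for Gngt2. Spn, which encodes the patrolling monocyte marker CD43, had 12.2 and 23.1, a log2 ratio of 0.87. Other defining markers had ratios below 0. Nr4a1, the nuclear receptor that Ly6Clo monocytes need, had 213.9 in control and 182.5 in deficient Ly6Chi cells, against 618.2 in control Ly6Clo cells, and Cx3cr1 had 71.7 and 60.3. Itgal, the LFA-1 subunit gene, had 93.6 and 83.6, Ace 26.4 and 24.7, and Itgax, which encodes CD11c, 3.36 and 1.45. Cebpb, a C/EBP factor that Ly6Clo monocytes need, was the 1 marker at least 2-fold lower, at 22.8 and 10.6, a ratio of -1.04, or -0.59 after GC correction. Single markers of the list thus lay on both sides of 0, 17 above and 10 below. Whether Ly6Clo cells in the sorted Ly6Chi population had a part in these values was not tested.

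**Figure D4:**
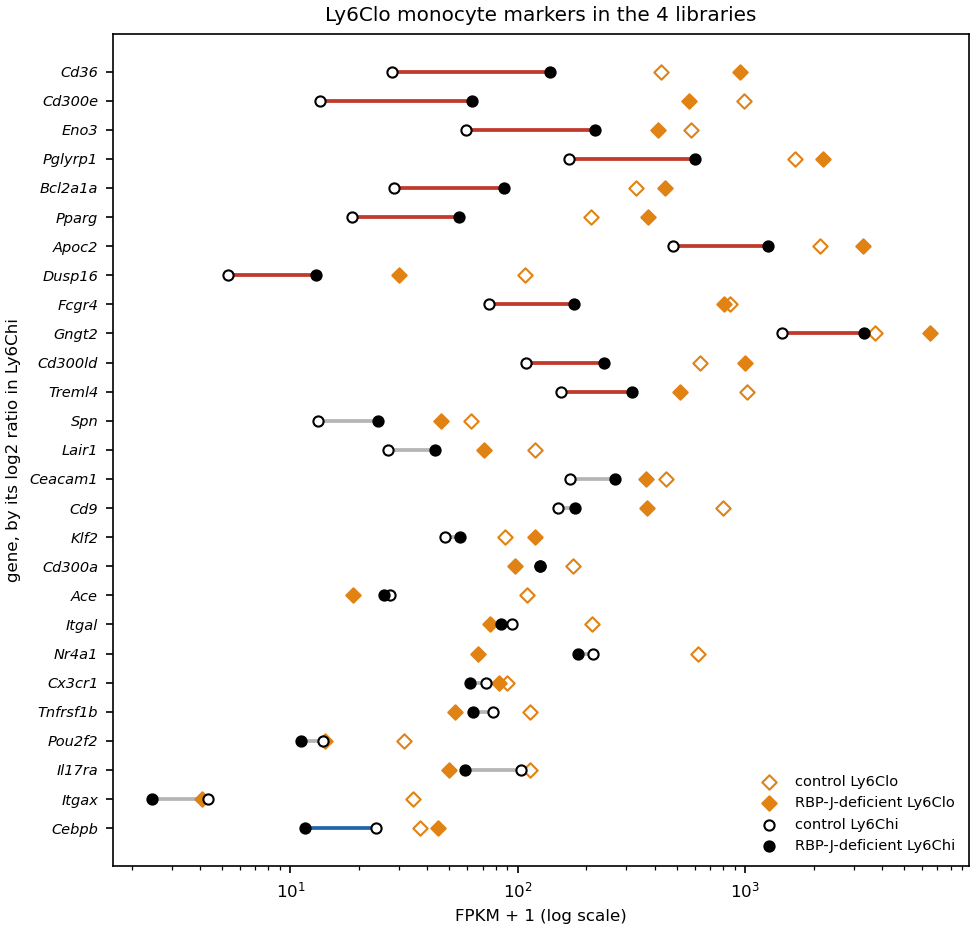
FPKM + 1 (horizontal axis, log scale) of the 27 Ly6Clo marker genes measured, in control Ly6Chi (open circles), RBP-J-deficient Ly6Chi (filled circles), control Ly6Clo (open diamonds) and RBP-J-deficient Ly6Clo monocytes (filled diamonds), 1 library each. Red lines mark the 12 genes at least 2-fold higher in deficient Ly6Chi cells, all of which stay left of both diamonds, and the blue line marks Cebpb.

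In Ly6Clo cells the median log2 ratio of the same markers between the genotypes was -0.49, with 1 gene at least 2-fold higher and 9 at least 2-fold lower. Over all 8875 genes the Ly6Clo pair had a median of 0.04, with 9.1% at least 2-fold higher and 11.3% at least 2-fold lower. Of the 12 that were higher in Ly6Chi cells, 5 had a ratio below 0 in Ly6Clo cells. Dusp16 was at 106.5 in control and 28.9 in deficient Ly6Clo cells, a ratio of -1.85, and Treml4 at 1018 and 513, a ratio of -0.99. No test of this difference between subsets was possible.

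Of 26 Ly6Chi marker genes measured, 1 was at least 2-fold higher and 1 at least 2-fold lower, and the median log2 ratio was -0.12. Each way this is 3.85%, against 1.93% of all genes higher and 3.44% lower. In the controls 24 of the 26 had a higher FPKM in Ly6Chi than in Ly6Clo cells, the exceptions being Ifitm6 and Ly6a. Ccr2, the receptor for exit from bone marrow and entry into tissues, had an FPKM of 711.6 in control cells and 624.3 in deficient cells, Chil3 1153 and 1257, and Vcan, which encodes versican, 10.2 and 8.93. F13a1, coagulation factor XIII, had 479.8 and 282.9, a ratio of -0.76. Cd177, a surface protein that neutrophils also carry, was the lower one at 288.6 and 103.2, and Ly6a, which encodes Sca-1, the higher one at 9.01 and 38.7. Ly6a was at 59.7 in control Ly6Clo cells, so by its level here it did not mark Ly6Chi cells. In Ly6Clo cells the median of the same list was 0.99, with 13 of the 26 at least 2-fold higher. Over all genes that pair had a median of 0.04, with 9.1% at least 2-fold higher.

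Among 34 monocyte transcription factors measured, 23 lay below 0, as did 48.5% of all genes. The median of the list was -0.33, or -0.21 after GC correction. At least 2-fold lower were Cebpd and Cebpb (5.88%, against 3.44% of all genes), and at least 2-fold higher was Pparg (2.94%, against 1.93%). Spi1, which encodes PU.1, the master regulator of myeloid cells, had 851 in control and 441.6 in deficient cells, a ratio of -0.94. Irf8, which directs monocyte and dendritic cell progenitors, had 130.3 and 92.9, and Klf4, which Ly6Chi monocytes need, 24.2 and 39.2. Of 7 colony-stimulating factor receptors 6 lay below 0, with a median of -0.60. Flt3 had 12.6 and 5.32, Il3ra 7.63 and 3.01, and Csf3r, the G-CSF receptor, 50.7 and 28.0.

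Immediate early genes were lower in part. Of 23 measured, 4 were at least 2-fold lower (17.4%, against 3.44% of all genes) and none higher, and 16 lay below 0. Junb, a subunit of the AP-1 factor, had 468.2 in control and 122.5 in deficient cells, a log2 ratio of -1.93, and Jun, its partner, 33.8 and 16.1, a ratio of -1.02. Socs3, an inhibitor of cytokine signalling, had 25.8 and 8.67, and Zfp36, which destabilises cytokine mRNA, 322 and 146.8. Fos, at 844 and 510.1, had a ratio of -0.73, while Btg1 had 217.5 and 411.3, a ratio of 0.92. After GC correction the median of the list went from -0.28 to -0.09, and Jun, at -0.86, was no longer past 2-fold. Such genes also respond to cell handling, whose part was not tested.

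Among the listed genes of antigen presentation and interferon responses, 11 of MHC class II, 20 of class I and 43 interferon-stimulated genes, none reached 2-fold. The class I symbol H2-Q7,H2-Q9, which is not in the list, did, with the ratio of 2.09 whose values are given above. For class II the median was -0.50 and 9 of 11 lay below 0, with H2-Aa at 764.9 in control and 416.4 in deficient cells, H2-Eb1 at 236.2 and 135.8, and the invariant chain Cd74 at 7467 and 5984. For class I the median was 0.14, and for interferon-stimulated genes -0.20, with 32 of 43 below 0. Irf7, a regulator of that response, had 173.9 and 100.1, a ratio of -0.79.

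Each of the 7 chemokine receptors measured lay below 0, from -0.54 for Cxcr2 to -0.13 for Cxcr4, with none past 2-fold. Of 19 integrin and selectin genes 15 lay below 0, as did 48.5% of all genes, and Itga5, Itga2b and Itga1 were at least 2-fold lower (15.8%, against 3.44% of all genes). Itga5, a subunit of the fibronectin receptor, had 12.4 in control and 4.63 in deficient cells, and Itga1, of a collagen receptor, 5.17 and 1.94. Itga2b is a platelet gene, at 14.4 and 5.62. Platelet markers as a whole had a median of -0.53, with 13 of 15 below 0 and Gp9 and Itga2b at least 2-fold lower (13.3%). Their summed FPKM was 467.2 in control and 389.8 in deficient Ly6Chi cells and 154.4 and 152.7 in the Ly6Clo libraries. The part of platelets on the sorted cells was not tested.

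Of 79 respiratory chain subunits 67 lay above 0, against 4567 of the 8875 genes (51.5%), with a median of 0.29 and 1 gene, Cox7a1 (1.75 and 5.28), past 2-fold. Of 79 cytosolic ribosomal proteins 65 lay above 0, with a median of 0.14 and a range from -0.36 to 0.62. With FPKM rescaled to TPM these medians were 0.18 and 0.04. Of 21 glycolysis genes 16 lay below 0, with a median of -0.50, among them Pkm, pyruvate kinase, at 673.6 and 425.9, Slc2a1, the glucose transporter GLUT1, at 22.9 and 11.3, and Slc16a3, the lactate exporter, at 22.6 and 9.63. Of the 5 above 0, Eno3, described above, was past 2-fold at 1.89.

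Of 36 lysosomal genes 26 lay below 0, as did 48.5% of all genes, and the median log2 ratio was -0.24. In this list 3 genes (8.33%, against 3.44% of all genes) were at least 2-fold lower. These were Mcoln1, Gaa and Tfeb, the regulator of lysosome genes, which had 14.4 in control and 4.49 in deficient cells. Rela, the p65 subunit of NF-kB, had 29.5 and 10.9, a ratio of -1.35, and Tnip3, an inhibitor of the same pathway, 3.11 and 9.93, a ratio of 1.41. They were the only genes past 2-fold of the 18 NF-kB genes measured, 5.56% each way, and the median was 0.0006. C1qb had 19.4 and 4.49, a ratio of -1.89, while its partner chains C1qa and C1qc had 1.05 and 1.498, and 5.63 and 6.32. C1qb was the only gene past 2-fold of 12 complement genes (8.33%), whose median was 0.04. Unc93b1, which escorts Toll-like receptors to endosomes, had 382.8 and 168.5, and Irak4, the kinase downstream of them, 33.3 and 71.1. Of 20 Toll-like receptor and adaptor genes these alone were past 2-fold, 5% each way, with a list median of -0.09. Hgf, hepatocyte growth factor, had 3.999 and 11.99, and the C-type lectin Clec4e, which encodes Mincle, 41.2 and 83.8. Hgf was the only gene past 2-fold of 15 cytokines (6.67%), and Clec4e of 16 C-type lectins (6.25%). Over all genes 1.93% were higher and 3.44% lower. Under TPM neither Irak4 nor Clec4e was past 2-fold. Clec4e was also under 2-fold after GC correction (0.84), after median centring (0.99) and with a pseudocount of 5 (0.94).

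Cell cycle, chaperone, iron, actin-binding, proteasome, S100 and annexin, Fc receptor and chemokine ligand lists had medians between -0.12 and 0.25. Of the 18 cell cycle genes measured, Bub1b (1.45 and 4.64) and Tubb5 (265.7 and 539, under 2-fold as TPM) were at least 2-fold higher and Cdt1 (8.16 and 2.29) at least 2-fold lower. These are 11.1% higher and 5.56% lower, against 1.93% and 3.44% of all genes. Hspa1a (12.1 and 4.62), Gclm (7.27 and 2.09) and Coro1c (53.5 and 24.7) were the genes at least 2-fold lower of the chaperone, iron and actin lists. They made up 5%, 6.67% and 2.38% of those lists. No proteasome, S100, annexin or chemokine ligand gene was past 2-fold.

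Of the B cell, T cell and NK cell lists 2, 1 and 3 genes passed the limit in both Ly6Chi libraries. The B cell markers summed to an FPKM of 28.5 in control cells and 53.3 in deficient Ly6Chi cells, of which Cd79b made up 23.7 and 43.7. T cell markers summed to 5.56 and 8.77 and NK cell markers to 12.7 and 9.25. Of 10 neutrophil markers measured 9 lay below 0, and the list summed to 1897 and 1354, mostly S100a8 (1085 and 861.4), which monocytes also express. The neutrophil granule genes Camp and Ngp, listed at 0 in control, had 5.52 and 4.87 in deficient cells. Dendritic cell markers summed to 810.9 and 629.6 and erythroid markers to 383.6 and 408.2. Their part in the differences above was not tested.

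Set beside the Ly6Clo pair, which shares no library with the Ly6Chi pair, fewer genes were past 2-fold in Ly6Chi cells. The 8875 genes passed the FPKM limit in the Ly6Chi libraries alone, so some are near 0 in Ly6Clo cells, such as Dyrk3. The summed FPKM was 717376 in control and 885648 in deficient Ly6Clo cells. The shares of both pairs are thus not a like comparison. Whether both subsets of a genotype came from the same mice or the same run is not given, so the pairs are not known to be independent. In Ly6Clo cells 808 of the same 8875 genes were at least 2-fold higher (9.10%) and 1005 at least 2-fold lower (11.3%). Of the genes higher in Ly6Chi cells 60 were also higher in Ly6Clo cells, 35.1% of the 171 and 7.43% of the 808. Of those lower, 162 were lower in both, 53.1% of the 305 and 16.1% of the 1005. Spearman's rho between the ratios of both subsets was 0.55 across the 8875 genes, and the same trend with GC content ran in both, with medians of 0.37 and -0.43 in the GC-poorest and the GC-richest of the 5 groups in Ly6Clo cells. Whether a gene differed between the subsets could not be tested with 1 library each.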

How the data were processed

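Total RNA of sorted blood monocytes was sequenced as paired ends on an Illumina HiSeq2500. The authors deposited 1 table of FPKM per gene for all 6 pairs of the 4 libraries, and the submitters' processing notes name CASAVA 1.8, TopHat2 2.1.0, Cufflinks 2.2.1 and build mm10. Its fold, p-value and q-value columns, which compare single libraries, were not used. No read counts were recovered: 222 genes with an FPKM above 0 and under 0.1 in both Ly6Chi libraries showed no common step.

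From the deposited FPKM, the log2 ratio of (FPKM + 1) was computed where both Ly6Chi libraries had an FPKM of 1 or more. Values were taken from the pair compared. The same genes were used for the Ly6Clo pair, without a limit on its FPKM. Small RNA genes (symbols starting Mir, Snora or Snord) were set aside, rows sharing a symbol (2 symbols) were summed, and 25 symbols in date form were kept but not named. Deposited starts, counted from 0, were raised by 1.

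Named are Rbpj, Fpr1 and Notch2, the 15 highest and 15 lowest ratios, the 10 highest and 10 lowest at an FPKM of at least 10 in both libraries, and members of 44 gene lists. The genes and lists were chosen with earlier results of these data known. Lists were described by counts and medians beside all genes, and a few of their members, though counted, are not reported here by name. No test was possible with 1 library a group.

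The GC correction subtracted the lowess trend (fraction 0.3, 3 iterations) of the ratio on the GC content of the longest GENCODE M21 transcript, fitted where the mean FPKM was 5 or more. It was known for 95.1% of genes, and other genes kept their ratio. The procedure was tested on simulated data. Promoters came from RefSeq GRCm38.p6. Alternatives covered pseudocounts, filters, TPM, centring, GC content and fold limits. Analyses ran in Python 3.11.15 with statsmodels 0.14.6, pandas 2.3.3, numpy 2.4.6, matplotlib 3.10.9 and scipy 1.17.1.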

Additional observations from a re-analysis of the deposited data

Results flagged for a closer look

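Of the 8875 genes, 13 were at least 2-fold apart in opposite directions in Ly6Chi and Ly6Clo cells. In the same direction, 60 were at least 2-fold higher and 162 at least 2-fold lower in both. Over all genes, 1.93% were higher and 3.44% lower in Ly6Chi cells, and 9.1% higher and 11.3% lower in Ly6Clo cells. The FPKM limit was applied to the Ly6Chi libraries alone. Of the 13 genes, 2 belong to the gene lists. Dusp16 had a log2 ratio of 1.28 in Ly6Chi cells, with an FPKM of 4.33 in control cells and 11.9 in deficient cells, and of -1.85 in Ly6Clo cells, with 106.5 and 28.9. Bank1, a B cell adaptor, had 1.06 in Ly6Chi cells, with 1.76 and 4.75, and -1.46 in Ly6Clo cells, with 3.54 and 0.648. In neither case was the difference tested, and the GC-corrected ratio of Bank1 in Ly6Chi cells was 0.85.

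Outside the 8875 genes, 8 genes had an FPKM under 1 in control and of at least 5 in RBP-J-deficient Ly6Chi monocytes. Gm18853 had 15.1 in deficient cells, but the joint symbol of Gm17757 and Gm18853 had 14.9 in control and 0.0455 in deficient cells, and the sum of both symbols was 14.9 and 15.2. Ear1 had 12.8 in deficient and 0.499 in control cells. Dkkl1, at 7.99, and Camp, at 5.52, are listed at 0 in control cells, and Camp is listed at 0 in both Ly6Clo libraries. Trim21, an antibody receptor of the cytosol, had 6.62 against 0.124 in control, and Insl6 had 5.78 against 0.910. Gnrh1 had 5.52 against 0.176, and 1810044D09Rik 5.11 against 0.959. In the set-aside small RNA genes, 7 are listed at 0 in control and at an FPKM of at least 1 in deficient cells, and 2 the other way round, out of 15 at 1 or more in either library.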

How the results depend on the processing

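With a pseudocount of 0.1, 277 genes were at least 2-fold higher and 484 lower, and with one of 5, 61 and 93. Without a filter, or with an FPKM of at least 1 in either library, 263 were higher and 465 lower, and at an FPKM of at least 10 in both, 67 and 59. Under TPM 464 were lower. At folds of 5.7 and 0.2 they were 4 and 7, and at 1.5-fold 859 and 1108. Of 1031 values for 98 named genes under the alternatives, 975 kept their direction and their side of 2-fold, 56 crossed 2-fold, 32 of these under a pseudocount of 5 and 16 under the GC correction, and none past 2-fold changed sign. Of 460 list medians 438 kept their sign and side of 2-fold. The Ly6Clo marker median ran from 0.59 to 0.71 and that of Ly6Chi markers from -0.22 to -0.09. The rest concern medians near 0 or lists of few genes. Without a filter the medians of the Notch receptors and ligands, Notch targets, chemoattractant receptors, chemokine ligands and erythroid markers were 0, and that of iron genes -0.00079. At an FPKM of at least 10, Notch receptors (Notch2 alone) had 1.18, complement genes -0.0545 (also with 1 in either library), chaperones 0.0221, cytokines 0.36 and NF-kB genes -0.0910. Under TPM the Bcl2 family had -0.0288, complement genes -0.0485, Fc receptors -0.0519 and NF-kB genes -0.0998, which had -0.0134 after centring. With GC correction C-type lectins had -0.0462, cytokines 0.0124, Notch targets 0.22 and RBP-J partners 0.0648. B cell markers had 1.13 with a pseudocount of 0.1. The cause was not tested. No paired analysis was possible because each group holds 1 library, and no library could be left out. Depth is unknown, so no interval can be given, and low genes carry the least certain ratios.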
